A study of Mus musculus with 6 samples.

Results

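The guides examined here were designed against upstream translons of Rab5a, Rhoa, Ap2m1 and Spns1, genes of endocytosis, small GTPase signalling and the lysosome. They were selected by the host gene in the guide name, and the choice of these 4 hosts was made with earlier results of these data known. This gave 8 guides, 2 for each of 4 host genes, out of 151 named guide sequences and 73 host genes in a pooled CRISPR-Cas9 growth screen. All 8 reached the 10 counts in 3 of 6 libraries that were required for a test.

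The screen was run in mouse embryonic stem cells of the line labelled #693 ES C57BL/6, with genotype C57/BL6, which was infected with a lentivirus pool. The vector, lentiCRISPR v2, carries Cas9 and a guide on the same cassette, so infected cells of both time points carry both. Guide cassettes were counted at day 0 and at day 10 in 3 numbered screens, 1 library per day and screen, which the labels call biological replicates. The groups differ in the day alone, and every library comes from the same line. Named guides had between 21991 counts (day 10 of screen 3) and 784149 counts (day 10 of screen 2) per library. The libraries hold guide counts and no expression, so the cell type could not be checked against markers, and neither editing at the sites nor the proteins were measured.

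An upstream translon is a translated stretch located 5′ of the main coding sequence on the same mRNA. Ribosomes that scan from the cap can translate it first, which often changes how many reach the main coding sequence. The main products of the 4 hosts work at the cell surface, on endosomes, at the actin cortex and in the lysosome. Ap2m1 encodes the medium subunit of the AP-2 adaptor, which binds membrane cargo and gathers it into clathrin-coated pits. Rab5a is the GTPase of early endosomes and drives the fusion of incoming vesicles. Rhoa is a GTPase that controls actin filaments and contractility. Spns1 is a lysosomal membrane protein that exports lysophospholipids. Cells in which a cut slows growth leave fewer descendants, so their guide loses share of the culture over time, and guides of faster growing cells gain share.

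The 8 guides are shown because each of them was counted and tested on its own, in the same 6 libraries. Each is written 5′ to 3′, and capitals mark the 12 bases on the PAM side, the seed that Cas9 pairs first.
Ap2m1 guide 1: gagcactgCAGTGAAAGCCG
Ap2m1 guide 2: ctgggggcGGGCGGACATCT
Rab5a guide 1: cccgccagACTCCCCTCCTC
Rab5a guide 2: aagtcctcGGAACTCGAGCG
Rhoa guide 1: agcgccctGCGGGCTCGAGC
Rhoa guide 2: cggggagcGCGAGCGAACGA
Spns1 guide 1: gtgcatcgGACCACGCTCCT
Spns1 guide 2: gcaccactGCGAAAAGCCCT

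Guides of the same host shared at most 5 bases in a row on either strand, so no pair can overlap by more than that. Their GC content lay between 60.0% and 80.0% with a median of 70%, against a median of 60.0% over the 136 tested guides. The letters ATG occurred on either strand in 2 of the 8 (25.0%), Ap2m1 guide 2 and Spns1 guide 1, and in 25.7% of all tested guides. CTG, a common near-cognate start triplet, occurred on either strand in 5 of the 8 (62.5%) and in 52.2% of all tested guides.

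Positions could be read for 3 of the 8 guides from RefSeq windows of assembly GRCm38.p6, which run from 250 bases before to 50 after an annotated gene start. The other 5 had no match in these windows. The 3 sites are printed with the next 3 bases of the genome in capitals, which have the NGG form of the PAM that Cas9 needs.
Ap2m1 guide 1 site: gagcactgcagtgaaagccgAGG
Rhoa guide 1 site: agcgccctgcgggctcgagcTGG
Rhoa guide 2 site, last 17 bases of the guide: ggagcgcgagcgaacgaGGG

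Ap2m1 guide 1 matched the plus strand at chr16:20535495-20535514, from 15 to 34 bases after the annotated start of Ap2m1, which is read from the plus strand. Rhoa guide 1 matched the minus strand at chr9:108306328-108306347. This is 168 to 187 bases after the first of the 2 annotated starts of Rhoa, which is read from the plus strand, and 169 to 188 bases before the start of Tcta. Tcta, the neighbouring gene read from the minus strand, starts 1 base away from that Rhoa start, so the window that held the match was that of Tcta. Rhoa guide 2 ran over the end of the same window. Its last 17 bases matched the minus strand at chr9:108306393-108306409, from 233 to 249 bases after the first Rhoa start, and its remaining bases lie beyond the window. The PAM-side ends of both Rhoa guides therefore lay 65 bases apart. The second annotated Rhoa start lies 637 bases after the first, beyond both sites. Rab5a, whose guides were not located, overlaps another annotated gene, Pp2d1. Exon and UTR boundaries were not used here.

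The abundance of a guide is given as CPM, its counts per 1000000 counts of the library, with library sizes scaled by TMM, the trimmed mean of M-values. At day 0 the members were mostly rarer than the typical guide, whose median was 4140 CPM. Spns1 guide 1 stood apart at 18621 CPM and ranked 14 of 136. The other 7 lay between 906 CPM, for Ap2m1 guide 1, and 3763 CPM, for Rhoa guide 2. Spns1 guide 1 supplied between 87.7% and 91.4% of the counts of its host in the 6 libraries, so the summed Spns1 value is close to the value of that guide. In the other 3 hosts both guides contributed, with guide 1 supplying between 28.3% and 53.6%.

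The comparison of day 10 with day 0 asks whether mutating these upstream translons changed growth. Rhoa guide 2 and Spns1 guide 1 rose, and no member passed as lower. These were 2 of the 8 guides past an adjusted p of 0.05 in the quasi-likelihood test of edgeR, with Benjamini-Hochberg (BH) adjustment over all 136 guides. Of all tested guides, 21.3% passed in either direction, 6.62% passed as higher and 20 of 136 passed as lower. The estimated fold change was above 0 for 7 of the 8 members, against 50.7% of all guides, and for 6 of 8 when library totals replaced TMM, where Ap2m1 guide 1 was at −0.0065. Their median log2 fold change was 0.22, and that of all guides was 0.0024. CPM at day 10 lay above CPM at day 0 without overlap for 3 of the 8, against 17.6% of all guides. These shares describe the list, and no test of it was made.

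Rhoa held the guide with the largest change of the 8. Rhoa guide 2 had 3710, 3710 and 3870 CPM at day 0 of screens 1 to 3 and 5162, 6062 and 5127 CPM at day 10. The lowest day 10 library was well above the highest day 0 library, and the 3 day 0 libraries lay within a narrow band. Its mean was 3763 ± 92.6 CPM at day 0 and 5450 ± 530 CPM at day 10 (SD, n = 3 libraries per day), an increase of 44.8%. The fitted log2 fold change was 0.54 ± 0.10 (SE, BH-adjusted p = 0.00735), which ranked 2 of 136 from the top. The highest rank belonged to a control, non-targeting guide 3, at 0.55 ± 0.25 (SE, BH-adjusted p = 0.141).

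The other guide of this host, Rhoa guide 1, did not pass the test. It had 2220, 2723 and 2598 CPM at day 0 and 2042, 2828 and 2450 CPM at day 10, so the days overlapped. Its mean was 2514 ± 262 CPM at day 0 and 2440 ± 393 CPM at day 10 (SD, n = 3 per day), with a log2 fold change of −0.05 ± 0.16 (SE, BH-adjusted p = 0.903).

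The ratio of both guides within a library does not depend on how the library is scaled. For Rhoa, log2(guide 2 / guide 1), with 0.5 added to each count, was 0.74, 0.45 and 0.57 at day 0 and 1.34, 1.10 and 1.06 at day 10. Guide 2 thus went from 1.5 to 2.24 times guide 1, a log2 difference of 0.58, and the days did not overlap. An exact permutation test, two-sided, returned p = 0.1, which is the lowest that 3 against 3 libraries can reach, and 0.4 after Benjamini-Hochberg adjustment over the 4 hosts. This ratio was without overlap in 19% of the 63 hosts with 2 tested guides, and the size of the Rhoa difference ranked 6 among them. The PAM-side ends of the guide sites lie 65 bases apart downstream of the first annotated Rhoa start, and the rise that passed the test was measured with guide 2 alone.

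With counts of both guides summed, Rhoa had 5930, 6432 and 6468 CPM at day 0 and 7204, 8890 and 7578 CPM at day 10. All day 10 libraries were higher than all day 0 libraries. The log2 fold change was 0.34 ± 0.10 (SE, BH-adjusted p = 0.0120) and rank 3 of the 67 tested hosts. When both guides were weighted equally, through the mean of their log2 CPM, the Rhoa adjusted p in limma was 0.150, a setting that passed 20.9% of hosts.

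Spns1 guide 1 was the other guide that rose. It had 18793, 18575 and 18495 CPM at day 0 and 23853, 22630 and 19783 CPM at day 10. Day 0 was tight, and the day 10 libraries all lay above it, with screen 3 closest. Its mean was 18621 ± 154 CPM at day 0 and 22089 ± 2088 CPM at day 10 (SD, n = 3 libraries per day), an increase of 18.6%. The log2 fold change was 0.26 ± 0.07 (SE, BH-adjusted p = 0.0341). With the replicate number as a block, which takes the screens as pairs, the adjusted p was 0.0557, and 8.82% of guides passed.

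Spns1 guide 2 had a similar estimate with a wide error. It had 2113, 2379 and 2239 CPM at day 0 and 2578, 3184 and 1860 CPM at day 10. Screens 1 and 2 were above all day 0 libraries and screen 3 was below them, where the value rested on 41 counts. Its log2 fold change was 0.23 ± 0.17 (SE, BH-adjusted p = 0.390). It was 0.093 without day 10 of screen 2, 0.36 without day 10 of screen 3 and 0.35 without day 10 of screen 1. That last fit put it past the threshold (edgeR adjusted p = 0.0467) and passed 34.6% of guides. Voom with a variance per day also put it past the threshold (adjusted p = 0.0367) and passed 50 of the 136 guides. The ratio of both Spns1 guides changed by −0.09 on the log2 scale (exact two-sided permutation p = 0.6), with overlapping days. Summed, Spns1 was at 20865 ± 116 CPM on day 0 and 24629 ± 2604 CPM on day 10 (SD, n = 3 per day). The change of 0.26 ± 0.07 on the log2 scale (SE, BH-adjusted p = 0.00677) ranked 8 of 67. With both guides weighted equally the limma adjusted p was 0.245.

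Neither Rab5a guide passed the test, and both estimates were above 0. Rab5a guide 1 had 1831, 1798 and 2001 CPM at day 0 and 2484, 2075 and 2450 CPM at day 10. The days did not overlap, by a narrow margin in screen 2. The log2 fold change was 0.30 ± 0.14 (SE), rank 12 of 136, with a BH-adjusted p of 0.154. It was past the threshold in 1 of the 6 fits without a library, that without day 10 of screen 2 (log2 fold change of 0.41, edgeR adjusted p = 0.0474), which passed 22.2% of guides. Without day 10 of screen 1 its log2 fold change was 0.18. Rab5a guide 2 had 2035, 2414 and 2127 CPM at day 0 and 2150, 2393 and 2314 CPM at day 10, with full overlap and a log2 fold change of 0.06 ± 0.14 (SE, BH-adjusted p = 0.830). The ratio of guide 2 to guide 1 changed by −0.25 on the log2 scale, and the days overlapped (exact two-sided permutation p = 0.3). Summed, Rab5a was at 4068 ± 181 CPM on day 0 and 4622 ± 149 CPM on day 10 (SD, n = 3 per day), without overlap. Its log2 fold change was 0.17 ± 0.10 (SE, BH-adjusted p = 0.190).

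Ap2m1, the clathrin adaptor subunit, had the guide of lowest CPM at day 0 and the 2 largest standard errors of the 8. Ap2m1 guide 1, whose site starts 15 bases after the annotated start of the gene, had 828, 908 and 981 CPM at day 0 and 712, 1066 and 998 CPM at day 10. Its day 10 libraries fell on either side of day 0, and its log2 fold change was 0.0058 ± 0.21 (SE, BH-adjusted p = 0.994). Ap2m1 guide 2 had 1665, 1031 and 1357 CPM at day 0 and 1533, 1360 and 1951 CPM at day 10. It varied more between day 0 libraries than any other member guide relative to its mean, and its log2 fold change was 0.22 ± 0.22 (SE, BH-adjusted p = 0.541). This value was 0.40 without day 0 of screen 1 and 0.067 without day 0 of screen 2. In day 10 of screen 3 these values rested on 22 and 43 counts. The ratio of guide 2 to guide 1 changed by 0.25 on the log2 scale (exact two-sided permutation p = 0.6). Summed, Ap2m1 was at 2257 ± 286 CPM on day 0 and 2540 ± 366 CPM on day 10 (SD, n = 3 per day), with a log2 fold change of 0.10 ± 0.14 (SE, BH-adjusted p = 0.626), which was 0.17 without day 0 of screen 1 and 0.015 without day 0 of screen 2. The Spns1 value of 0.26 lies within 2 SE of this estimate, so the data do not separate a change of that size from none for Ap2m1.

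At the level of hosts, 2 of 4 passed, Rhoa and Spns1, and both were higher. Among all 67 hosts 37.3% passed in either direction and 14.9% as higher. All 4 estimates were above 0, as were 55.2% of hosts, and 3 of 4 were higher without overlap of the days, against 26.9%. The order from the top was Rhoa, Spns1, Rab5a and Ap2m1. With 3 libraries a day the exact test cannot go below p = 0.1, so it could not separate neighbours in this order, and their ratios are given as values. The log2 ratio of Rhoa to Spns1 within a library changed by 0.09 between the days (exact two-sided permutation p = 0.6), that of Spns1 to Rab5a by 0.05 (exact p = 0.8) and that of Rab5a to Ap2m1 by 0.01 (exact p = 1.0). For the ends of the order, Rhoa over Ap2m1, the change was 0.16 with overlapping days (exact p = 0.5). These 4 ratios were chosen after the values were seen, and their adjusted p was 1.0 in each case. Of the symbols listed for membrane traffic, small GTPases and lysosomes, the library held these 4 and no further host.

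Within single screens, log2(day 10 / day 0) was taken from CPM after a pseudocount of 1 was added, and 18 of the 24 guide values were above 0. There were 5 of 8 in screen 1, 7 of 8 in screen 2 and 6 of 8 in screen 3, where 48.5%, 51.5% and 50% of all tested guides were above 0. The medians of the 8 were 0.18, 0.26 and 0.11 in screens 1 to 3. A screen has 1 library per day, so these values have no test, and the 95% exact binomial (Clopper-Pearson) intervals below cover counting error only.

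Rhoa guide 2 was higher in each screen, by 0.48 (0.32 to 0.63) in screen 1, 0.71 (0.56 to 0.86) in screen 2 and 0.41 (0.12 to 0.68) in screen 3 on the log2 scale. None of the 3 intervals reached 0. Spns1 guide 1 was higher by 0.34 (0.28 to 0.41), 0.28 (0.22 to 0.35) and 0.10 (−0.04 to 0.24), and the interval of screen 3, whose day 10 library is shallow, included 0. Rab5a guide 1 was higher by 0.44 (0.22 to 0.67), 0.21 (−0.0037 to 0.42) and 0.29 (−0.13 to 0.69).

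These 3 guides were the members above 0 in every screen, which is 37.5% of the 8 against 22.8% of all tested guides. With size factors from the control guides this held for 2 of them, since Spns1 guide 1 was then at −0.06 in screen 3, and Ap2m1 guide 2 was then above 0 in every screen. The value of Rhoa guide 2 in screen 3 was then 0.25. Ap2m1 guide 2 split between screens, at −0.12 (−0.35 to 0.12) in screen 1, 0.40 (0.12 to 0.69) in screen 2 and 0.52 (0.05 to 0.97) in screen 3. Spns1 guide 2 was at 0.29 and 0.42 in screens 1 and 2 and at −0.27 (−0.75 to 0.18) in screen 3. Rhoa guide 1 stayed between −0.12 and 0.05 and Rab5a guide 2 between −0.01 and 0.12.

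The 6 control guides, 3 non-targeting and 3 safe-targeting, measured how far guides without a translon target moved. Non-targeting guide 3 was the highest of them, at a fitted log2 fold change of 0.55, and safe-targeting guide 3 the lowest, at −0.42. All 8 members lay within this range, including Rhoa guide 2. The 2 kinds of control differed, with non-targeting guides at 0.13, 0.32 and 0.55 and safe-targeting guides at 0.0024, −0.37 and −0.42. The upper end of the range thus comes from non-targeting guides. Every member except Rhoa guide 1, at −0.05, lay above all 3 safe-targeting guides. The controls were uneven between screens. In screen 1 they spread from −1.33 to 1.18, in screen 2 from −0.44 to 0.35 and in screen 3 from −0.47 to 0.84. In screen 2, where the controls spread least, 3 members exceeded the highest control, namely Rhoa guide 2 at 0.71, Spns1 guide 2 at 0.42 and Ap2m1 guide 2 at 0.40. No member did so in screens 1 and 3 (0 of 8 in each). The share of all tested guides above the highest control of a screen was not taken, so these counts have no background beside them.

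Scaling by the controls ended the calls. With size factors from the 6 control guides, 0.0% of guides and 2.99% of hosts passed in edgeR, and no member was among them. Before adjustment, 19 guides had a p under 0.05, and Rhoa guide 2 was the member among them. Rhoa guide 2 then had a log2 fold change of 0.57 (edgeR adjusted p = 0.107), summed Rhoa 0.36 (adjusted p = 0.243), Spns1 guide 1 0.29 (adjusted p = 0.478) and summed Spns1 0.28 (adjusted p = 0.380). The estimates were therefore as large as with TMM, and the adjusted p-values were larger. The SE was 0.17 for Rhoa guide 2, against 0.10 with TMM, and 0.18 for Spns1 guide 1, against 0.07. The 6 controls had from 11 to 98 counts each in day 10 of screen 3. Their library factors differed from TMM by −0.28 in day 10 of screen 1 and 0.17 in day 10 of screen 3 on the log2 scale. Relative to the geometric mean of the controls within a library, Rhoa guide 2 was at 0.98, 0.90 and 1.03 on the log2 scale at day 0 and at 1.61, 1.57 and 1.35 at day 10, without overlap. The share of all tested guides without overlap on this measure was not taken. Spns1 guide 1 was at 3.32, 3.22 and 3.29 at day 0 and at 3.82, 3.47 and 3.30 at day 10, where screen 3 fell within the day 0 range.

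Some member calls changed when a GC trend was removed. The 4 members with at least 70% GC were both Rhoa guides, Rab5a guide 1 and Ap2m1 guide 2, and among all tested guides this class had a median log2 fold change of 0.04 (n = 46), against −0.0026 for the others (n = 90). With a linear GC trend removed per library, 7.35% of guides and 32.8% of hosts passed. Rhoa guide 2 then changed by 0.43 (edgeR adjusted p = 0.0646), summed Rhoa by 0.21 (adjusted p = 0.213) and Spns1 guide 1 by 0.22 (adjusted p = 0.0631), while summed Spns1 stayed past the threshold at 0.22 (adjusted p = 0.0143). With the GC trend removed and the screens as blocks, 15.4% of guides and 28.4% of hosts passed. Rhoa guide 2 and Spns1 guide 1 were among them, at adjusted p-values of 0.0171 and 0.0493, as was summed Spns1, at a log2 fold change of 0.21 (edgeR adjusted p = 0.0167). Summed Rhoa was not, at 0.19 (adjusted p = 0.165).

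Calls also depended on single libraries. The adjusted p of Rhoa guide 2 was 0.0509 without day 0 of screen 1 and 0.0572 without day 0 of screen 2, and under 0.05 in the other 4 fits, with log2 fold changes between 0.47 and 0.61 over the 6. For summed Rhoa it was 0.0638, 0.0642 and 0.0774 without day 0 of screen 1, day 0 of screen 3 and day 10 of screen 2, fits that passed 22.4%, 19.4% and 38.8% of all hosts. Its log2 fold change ran from 0.24, without day 10 of screen 2, to 0.44, without day 10 of screen 1. Spns1 guide 1 was over 0.05 without any 1 of the day 0 libraries, at 0.159, 0.122 and 0.152 for screens 1 to 3, while its log2 fold change stayed at 0.27, 0.26 and 0.25. Those 3 fits passed 2.22%, 3.68% and 6.67% of all guides, against 21.3% with all libraries, so calls were lost across the whole table. Summed Spns1 was over 0.05 in 1 of the 6 fits, at 0.0579 without day 0 of screen 3.

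Hosts outside the group had similar courses over the screens. Likeness was the root mean square difference of the 3 log2(day 10 / day 0) values of a host, a description with no test. Nearest to Rhoa were Hdgf, at a difference of 0.11, and Gata6, at 0.12, against a median of 0.36 over 66 hosts. Nearest to Spns1 were Gata6, at 0.02, and Etf1, at 0.08, against a median of 0.29. Rab5a lay nearest to Rps9, at 0.05, and Gm20594, at 0.06, against a median of 0.24. Ap2m1 lay nearest to Cnbp, at 0.13, and Dppa3, at 0.15, against a median of 0.34.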

How the data were processed

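The authors deposited raw counts per guide sequence, with a column per screen and day, per the file headers. Bowtie2 2.3.4.3 is named in the submitters' processing notes; the counting rule is not given in the sources used here. Missing entries were read as 0. Unnamed sequences held from 1.25% to 1.48% of each library and were left out.

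Guides that reached 10 counts in 3 or more libraries were tested with edgeR 4.0.16 (R 4.3.3; quasi-likelihood F test, TMM, day as the term), adjusted over 136 guides, or over 67 hosts after summing guides. An SE is the log2 fold change over the square root of F. Ratios within libraries used exact permutation tests (scipy 1.17.1). Alternatives used DESeq2 1.42.0 and limma 3.58.1. The removal of a GC trend was added after the data were seen.

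Per the file headers a number marks a screen, and the block pairs libraries by it. Deviations of paired libraries from their day means correlated at −0.09, −0.20 and −0.02 over guides. Whether the screens were separate cultures is not stated beyond "biological replicate", so p-values measure the spread between these libraries. Members and lists were chosen with earlier results of these data known. All members, all their guides, the extreme controls and the 2 nearest hosts per member were named by rule.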

Additional observations from a re-analysis of the deposited data

How the results depend on the processing

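In day 10 of screen 3 the members had from 22 counts, for Ap2m1 guide 1, to 436, for Spns1 guide 1. Against 2 of 8 guides and 2 of 4 hosts past the threshold, size factors from the control guides left 0 guides and 0 hosts. The replicate block left 1 guide, Rhoa guide 2, and changed no other member call. Removal of the GC trend left 0 guides and 1 host, Spns1. With the replicate block as well, it left 2 guides, Rhoa guide 2 and Spns1 guide 1, and 1 host, Spns1. The mean log2 CPM of the guides of a host, tested in limma, left 0 hosts and passed 14 of all 67 hosts. Weighting and test changed together there, so their parts cannot be told apart. Without single libraries, from 0 to 3 member guides and from 0 to 2 member hosts passed, in fits that passed from 3 to 47 of all guides and from 13 to 30 of all hosts. DESeq2, its size factors, library totals, no filter and voom kept both hosts. In that order they passed 25, 30, 25, 25 and 37 of all 67 hosts, against 25 in the main fit. The cause was not tested. Without a count filter the same 136 guides were tested, so that fit repeats the main fit and is no separate check. Over 196 comparisons of the 12 fold changes, 165 kept direction and side of the threshold, 20 fell short of it, 3 came past it and 8 turned sign. The 165 include the comparisons without a count filter, which could not differ from the main fit. The 8 belong to 2 guides near 0. Ap2m1 guide 1 was at −0.0065 with library totals, −0.0021 with a day 0 mean of at least 100 counts, −0.093 with voom, and from −0.15 to 0.18 without single libraries. Rhoa guide 1 ran from −0.20 to 0.11 without single libraries. The change in the ratio of guide 2 to guide 1 ran, without single libraries, from 0.49 to 0.66 for Rhoa, from −0.37 to −0.15 for Rab5a, from 0.067 to 0.48 for Ap2m1 and from −0.25 to 0.033 for Spns1, where it turned sign without day 10 of screen 3. Each move was smaller than the pooled SD of the days. Of the 24 values within screens, 17 or 18 were above 0 in each alternative, and 9 of 72 comparisons moved by more than the SD over screens, all of them with the control guide size factors.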
